A study of Rattus norvegicus with 28 samples.

Results

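The 150 genes described here were highest, among spinal cord libraries labelled 3 and 4 weeks, in samples exposed to injured cord at week 3. They were selected by their values in 15 libraries. Read counts were divided by the library's total count and multiplied by 1000000 (CPM). These were averaged over 3 injured week 3, 4 uninjured week 3, 4 injured week 4 and 4 uninjured week 4 libraries, and 1 was added to each mean. Of the 32545 genes in the table, 9302 had an injured week 3 value of at least 10. Of these, 7649 also had an injured to uninjured ratio at week 4 of at least 0.5 and under 2. The 150 with the largest ratio of injured week 3 to the highest of the other 3 groups were taken. High values at injured week 3 and low values in those 3 groups therefore follow from the choice, and no test is attached to them. Ratios of group means below are of means plus 1.

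All 28 samples carry the label of rat neural progenitor cells, and their RNA was sequenced as total RNA. They form 7 groups of 4: cells kept in culture, and cells exposed to spinal cord or to injured spinal cord with a label of 2, 3 or 4 weeks. The cord groups whose label lacks the word injury are called uninjured here. Strain, age, the way of exposure, the event from which weeks are counted, and any separation of the cells from cord tissue are not stated in the labels. Nothing in the labels ties replicates to different animals or cultures, so a p-value here reflects variation among the sequenced samples, possibly only technical. In such bulk RNA, fewer cells of a type and less RNA per cell cannot be told apart.

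Neural progenitors are dividing cells that can give rise to neurons, astrocytes and oligodendrocytes, and culture with growth factors keeps them in the progenitor state. After transplantation into the cord many of them mature, and the injured cord surrounds them with inflammatory cells, reactive glia and newly laid matrix, in a response that changes over days and weeks. A gene that is high for a limited time after injury may belong to the progenitors and their progeny or to the tissue around them. The table pairs none of its identifiers with a gene symbol, and 0 of 32545 matched the gene table used here. The members are hence given by identifier for the first 2 and by rank for others, roles are not stated, levels are not compared between genes, and the label of the cells could not be checked against markers.

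Libraries of weeks 3 and 4 held 2605188 to 6824050 counts and culture libraries 5273204 to 6908508. The 8 week 2 libraries held 84532 to 446331, where a single count equals 2.24 to 11.8 CPM. Injured week 3 replicate 3, with 3614226 counts, had 0 counts for 28.3% of the 9302 genes with an injured week 3 value of at least 10. The rule left it out, and injured week 3 means below are over the other 3 libraries unless stated.

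**Figure D1:**
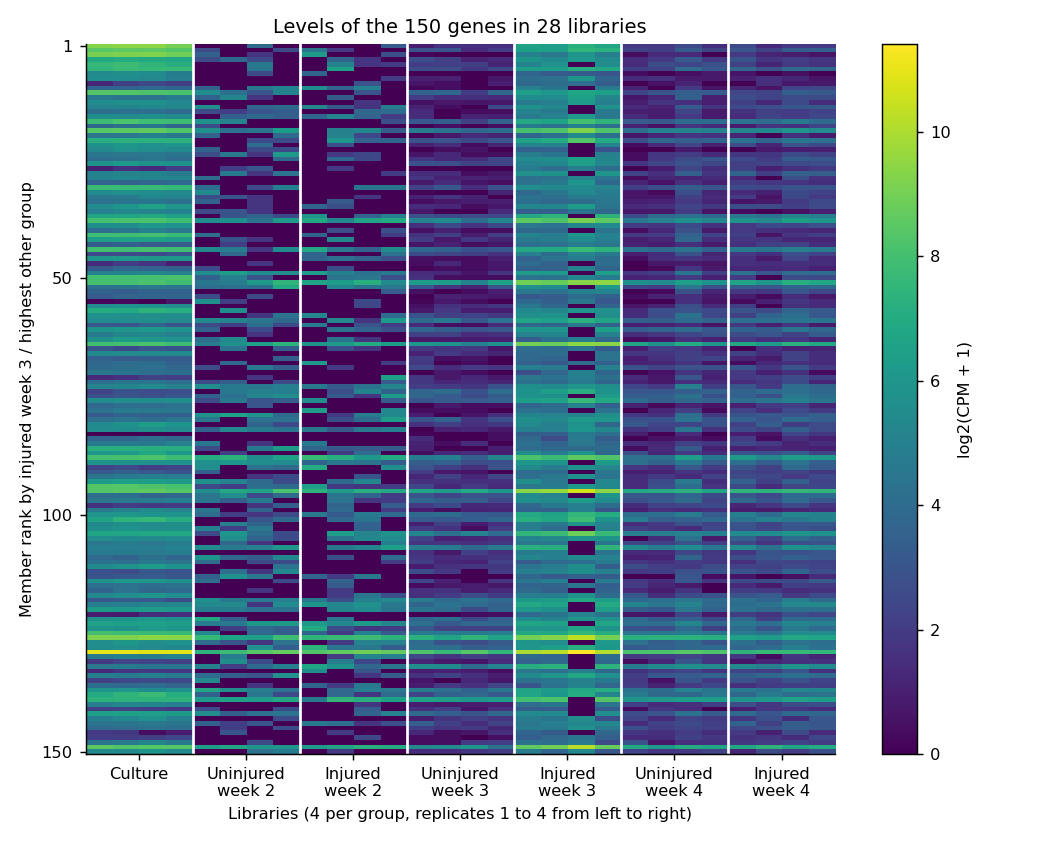
Levels of the 150 members as log2(CPM + 1), 1 line per member in order of rank and 1 column per library, with white lines between groups. The 3 injured week 3 libraries used by the rule are bright at all 150 members, replicate 3 of that group is dark at 44 of them, culture is bright at most, and the shallow week 2 libraries hold many members at 0 counts.

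The leading member, ENSRNOG00000043219, stood at 92.8, 80.0 and 105.2 CPM in the injured week 3 libraries used (92.7 ± 12.6, SD, n = 3). It had 0.879 to 2.08 CPM in uninjured week 3, 1.79 to 4.99 in uninjured week 4 and 1.51 to 4.90 in injured week 4. No library of these 3 groups came near the injured week 3 libraries, and the ratio to the highest group was 23.1 (log2 4.53). With a constant of 5 in place of 1 the log2 ratio was 3.60. In culture the gene was higher still, at 519.5 to 681.2 CPM (626 ± 76.0, SD, n = 4). At week 2 it had 3 counts over the injured and 6 over the uninjured group, each from 1 library.

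ENSRNOG00000018384, ranked 2, stood at 89.1, 86.6 and 154.1 CPM in injured week 3 (109.95 ± 38.2, SD, n = 3). It had 1.70 to 7.27 CPM in uninjured week 3, 3.15 to 8.44 in uninjured week 4 and 3.79 to 9.82 in injured week 4, a ratio of 13.0 to the highest group mean. The groups again did not overlap. Culture stood above injured week 3, at 337.4 to 385.0 CPM (364.5 ± 22.4, SD, n = 4). Its week 2 values rest on 3 injured and 2 uninjured counts.

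**Figure D2:**
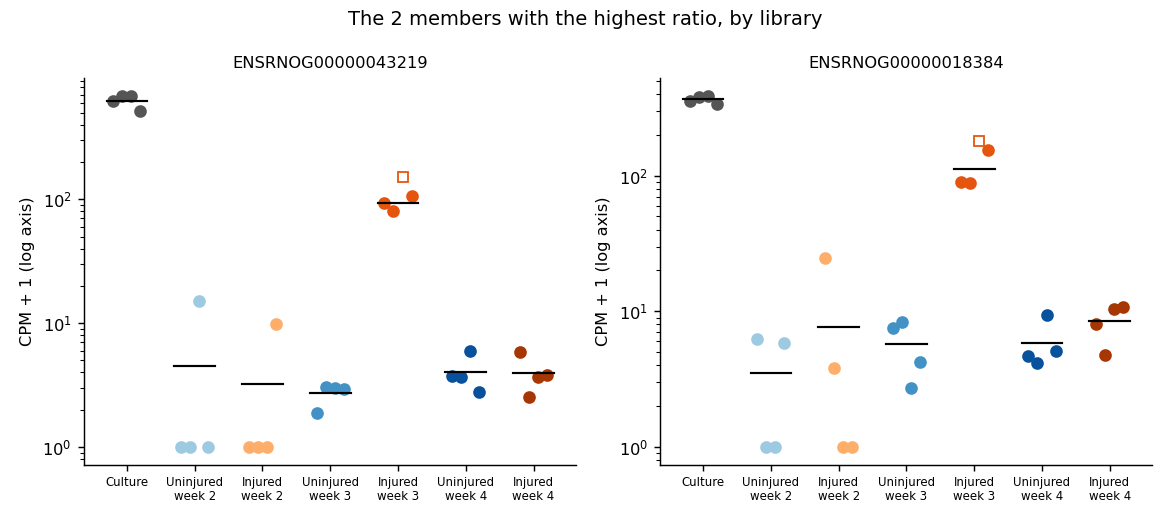
CPM + 1 on a log axis for the 2 leading members in each library, with group means as bars; the open square is injured week 3 replicate 3, which is not in the mean. In both genes all 4 injured week 3 libraries lie above every uninjured week 3, uninjured week 4 and injured week 4 library, and below every culture library.

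Over the 150 members the ratio ran from 3.38 to 23.1 with a median of 4.36. It was under 5 for 97 members, from 5 to under 10 for 50 and above that for 3. The injured week 3 mean was 27.97 CPM at the median member and ran from 9.08 to 1116, against medians of 2.13 in uninjured week 3, 3.55 in uninjured week 4 and 4.72 in injured week 4. Summed over the members, injured week 3 libraries held 10761 ± 624 CPM (SD, n = 3), that is 1.08% of their counts. The sums were 1369 ± 166 in uninjured week 3, 1811 ± 461 in uninjured week 4 and 2159 ± 381 in injured week 4 (SD, n = 4 each). The rule set these differences.

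The limit of 150 fell within a continuous range. The last 5 members had ratios of 3.42, 3.41, 3.40, 3.40 and 3.38, and the next 5 genes, just outside, 3.37, 3.36, 3.36, 3.35 and 3.33. Rank 150 had an injured week 3 mean of 15.5 CPM and an injured week 4 mean of 3.88, and rank 151 had 14.0 and 3.44. The injured to uninjured ratio at week 4 reached 1.997 among members, and another 143 genes that met the other limits of a member were outside with a ratio of at least 2, the nearest at 2.001. The lowest injured week 3 mean of a member was 9.08 CPM, and the nearest gene that failed only this minimum had 8.87.

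At the median member the 3 injured week 3 libraries differed little from one another beside the gaps to the other groups. The coefficient of variation was 18.4% at the median member and ran from 2.41% to 66.0%. The highest library exceeded the lowest 1.42-fold at the median. Replicate 4 was the highest of the 3 for 68 members, replicate 1 for 45 and replicate 2 for 37. All 3 libraries lay above each of the 12 libraries of the other groups for 147 members, where 28.7% of the 9302 genes with an injured week 3 value of at least 10 did so; the rule used these libraries, so nothing is read from that count. The 3 members whose groups overlapped ranked between 93 and 148.

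Injured week 3 replicate 3 was not used by the rule and shows the members in a further library of the group. All but 44 of the 150 members (70.7%) were detected there, and each detected member lay above all 12 uninjured week 3, uninjured week 4 and injured week 4 libraries. Each also lay above the lowest of the other 3 libraries of its group. Counting members at 0, that is 70.7% of the 150, near the 71.4% of the 9302 genes, so nothing is read from it. Among the 9302 genes, 54.9% lay above those 12 libraries, and 76.5% of the 6668 detected ones. The rule favoured genes with low levels in those 12 libraries, so part of the members' share follows from the choice. The 44 members at 0 counts make up 29.3%, close to the 28.3% of the 9302 genes. Given their means in the other 3 libraries, those 44 would have had 33.7 to 1046 counts, with a median of 109.3. A count of 0 in this library allows up to 0.830 CPM. Members at 0 and members detected had similar median levels in the other 3 libraries, 30.2 and 27.5 CPM.

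Where detected, members stood at 1.76 times their mean of the other 3 libraries at the median, and from 0.876 to 3.64 times. The same median over the 6668 detected genes was 1.90. With library sizes scaled by TMM, which gave this library a factor of 1.82, all but 2 of the detected members lay above the 12 libraries. The shares of all genes given above are without this scaling, so nothing is read from that count. One library cannot carry a test, and the cause of the 44 counts of 0 was not tested.

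**Figure D3:**
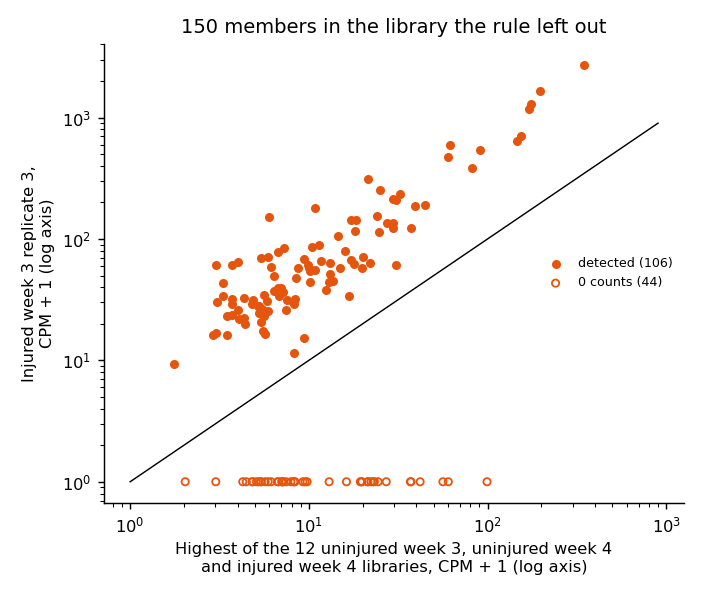
Each point is 1 member: CPM + 1 in injured week 3 replicate 3 against the highest CPM + 1 among the 12 uninjured week 3, uninjured week 4 and injured week 4 libraries, on log axes with the line of equality. The detected members, 70.7% of all, lie above the line and the 44 at 0 counts form the line at the bottom.

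Week 4 was limited by the rule but not brought to equality. The injured week 4 mean was above the uninjured week 4 mean for 77.3% of the 150 members, where 47.7% of the 9302 genes were so placed. The injured to uninjured ratio was at least 1.5 for 55 members, from 1 to under 1.5 for 61 and under 1 for 34, with a median of 1.34. Injured week 4 was the highest of the other 3 groups for 74.7% of the members (37.3% of the 9302 genes), uninjured week 4 for 32 (24.1%) and uninjured week 3 for 6 (38.6%).

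These ratios, with their constant of 1 and plain library totals, were smaller than the fold changes fitted to the counts. In edgeR with TMM scaling the median log2 fold change of the members at week 4 was 0.84, and 48 members had at least 1. There 27 members passed an adjusted p of 0.05 as higher in injured week 4 (edgeR quasi-likelihood test), where 12.1% of the 14282 genes tested did. Both weeks' injury contrasts were used by the rule, so this count is a description. Its place against all genes was not stable: 18% of the members were called against 12.1%, but 2 members (1.33%) against 6.38% with all 28 libraries, and 59 (39.3%) against 23.8% without the week 2 libraries. Without uninjured week 4 replicate 3 it was 45 (30% against 10.7%). The members' share was below that of all genes without uninjured week 4 replicate 2 (6 members, 4% against 9.85%), replicate 4 (10, 6.67% against 10.5%) or replicate 1 (11, 7.33% against 9.6%). The same held without injured week 4 replicate 3 (8, 5.33% against 10%) or replicate 4 (12, 8% against 9.91%), and without injured week 4 replicate 1 the shares were 10.7% and 10.5%. The description of these genes as high at week 3 only thus rests on the limit of 2, and 77.3% of the members had some excess of the injured mean at week 4.

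At week 3, 150 of 150 members passed as higher in injured cord (20.7% of genes tested), with a median log2 fold change of 3.48. Between injured weeks, 150 of 150 passed as lower at week 4 than at week 3 (7.77% of genes tested), with a median log2 fold change of -2.10. The rule used these contrasts too, and nothing is read from either count. TMM scaling moved the median log2 ratio of injured week 3 to injured week 4 over the 9302 genes by -0.32, from 0.43 to 0.10, while the members' median went from 2.23 to 1.95.

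The uninjured weeks differed in level as well. The uninjured week 4 mean exceeded the uninjured week 3 mean for 82% of the 150 members (46.9% of the 9302 genes), with a median ratio of 1.40, and by at least 2-fold for 23 (3.12%). Uninjured week 4 replicate 3 was the highest of its group for 72% of the members (31.8% of the 9302 genes), at a median of 1.60 times the mean of the other 3 libraries, against 1.04 over the 9302 genes. The members' summed level was 2500 CPM in that library and 1534 to 1605 in the others of its group. These traits are not particular to the members. Among the 664 genes described below as still raised at week 4, the uninjured week 4 mean was the higher for 75.9%, and at least 2-fold for 15.5%. Uninjured week 4 replicate 3 was the highest of its group for 70.6% of them. Whether this library accounts for the difference between uninjured weeks was not tested.

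Culture was not used by the rule. At the median member it stood at 34.1 CPM, close to injured week 3, with a median ratio of culture to injured week 3 of 1.08 and quartiles of the log2 ratio at -0.96 and 0.95. The members' summed level in culture was 13484 ± 660 CPM (SD, n = 4), 1.35% of counts. Culture exceeded both uninjured means at least 2-fold for 83.3% of the members, where 15.7% of the 9302 genes did. All 4 culture libraries lay above each of the 12 uninjured week 3, uninjured week 4 and injured week 4 libraries for 80.7% of the members (23.7%). Since the rule favoured genes with low levels in those 12 libraries, part of these shares follows from the choice, and no test is given.

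The members split 3 ways by culture. In 34 members culture was at least 2-fold above injured week 3 (5.3% of the 9302 genes), in 80 it was within 2-fold (83.2%) and in 36 it was at least 2-fold below (11.5%). In the first class the median member had 71.7 CPM in culture, 25.7 in injured week 3 and 3.12 in injured week 4. The middle class had 32.3, 28.2 and 5.26. The last class had 6.58, 34.3 and 7.52, so that culture there lay between the medians of uninjured week 4, 4.04, and injured week 4.

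The member with the highest ratio of culture to injured week 3, ranked 3 in the list, stood at 468.0 to 595.4 CPM in culture and at 30.9, 22.4 and 28.6 CPM in injured week 3. It had a single count over the 4 uninjured week 3 libraries, 0 to 1.57 CPM in uninjured week 4 and 0.517 to 2.72 CPM in injured week 4. Injured week 3 thus lay above the other groups of weeks 3 and 4 and 19.2-fold below culture. At week 2 it had 8 injured counts in 2 libraries and 3 uninjured counts in 2 libraries. The next 4 such members, ranked 50, 94, 86 and 41, had culture levels 12.2, 10.4, 8.90 and 7.20 times those of injured week 3.

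At the other end, the member ranked 83 had 0 counts in all 4 culture libraries, in all 8 week 2 libraries, in 2 uninjured week 3 and in 2 uninjured week 4 libraries. Injured week 3 held 9.46, 9.89 and 16.5 CPM, and the library left out by the rule 23.5 CPM from 85 counts. Against a floor of 3 counts over the culture group, injured week 3 was at least 93.5-fold higher than culture. Injured week 4 held 0.505 to 4.25 CPM. The next lowest 4 ran from 0.0945 to 0.124 times injured week 3, the first of them ranked 74. In all 36 members with culture at least 2-fold below, injured week 3 was also at least 2-fold above the 3 other groups. The class and the rule fix that outcome. Nothing is read from it beside the 4.05% of the 9302 genes with the same pattern. For 31 members culture was less than 2-fold above the highest of the 3 other groups of the rule (91.7% of the 9302 genes).

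**Figure D4:**
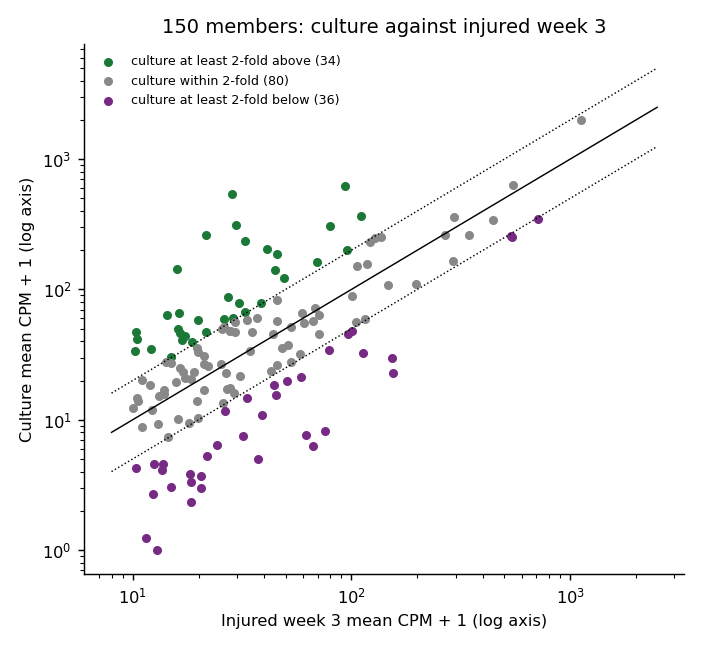
Mean CPM + 1 in culture against injured week 3 for the 150 members on log axes, with lines of equality (solid) and of 2-fold difference (dotted). Culture is at least 2-fold above for 34 members, within 2-fold for 80 and at least 2-fold below for 36.

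The members were set beside 664 genes that met the same injured week 3 minimum and at least the same smallest ratio to both uninjured groups, but kept an injured to uninjured ratio of at least 2 at week 4. Culture exceeded both uninjured means at least 2-fold for 72.3% of them and for 83.3% of the members, so that trait is not particular to the members. Their median ratio of culture to injured week 3 was 0.435, against 1.08 for the members. Culture was at least 2-fold above injured week 3 for 5.87% of them and for 22.7% of the members, and at least 2-fold below for 55.1% and 24%. Genes are not independent replicates and both sets were selected on injured week 3, so these differences were not tested.

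Week 2 libraries are the set of injured and uninjured samples that the rule did not use. Their comparison is the only one in which members are tested, and the low count filter limits it. Most members were not called in either direction at week 2. The median log2 fold change was -0.04 over the members and -0.05 over the 14282 genes tested, with 65 members above 0, 76 below 0 and the rest at 0. The injured week 2 mean CPM was above the uninjured one for 66 members (52.2% of the 9302 genes). The low count filter was applied over 27 libraries, and the 150 members passed it by way of groups where they are high: on the 8 week 2 libraries alone 18 pass and 132 do not.

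Of the 150 members, 3 were called higher in injured week 2 libraries at an adjusted p of 0.05 in edgeR's quasi-likelihood test. That is 2%, against 1.2% of genes tested. Another 4 were called lower, 2.67% against 2.16%. These shares are near those of all genes, and 6 of the 7 called members passed the filter only through groups where they are high. Nothing is therefore read from either count. Fitted to the 8 week 2 libraries alone, edgeR called 0 of the 18 members tested and 0 of all 4992 genes in either direction, with 0 members higher and 1 lower at an unadjusted p of 0.05. Only 1 of the 7 called members was tested there, the one ranked 89, and it was not called (edgeR adjusted p = 0.99996). With 27 libraries and an unadjusted p of 0.05 the members numbered 9 higher, 6% against 8.55% of all genes, and 22 lower, 14.7% against 11.8%. Both counts turned on single libraries and on the tool. Without uninjured week 2 replicate 1 the number called higher was 0 (10 at an unadjusted p of 0.05). It was 1 without replicate 3 or replicate 4 of that group. The number called lower was 2 without injured week 2 replicate 1, 1 without injured replicate 2, 2 without uninjured replicate 2 and 6 without uninjured replicate 3. Limma voom with quality weights called 0 members in either direction (2 higher and 3 lower at an unadjusted p of 0.05) and 0% of all genes. DESeq2 called 5 higher and 13 lower, where its shares of all genes were 2.63% and 3.6%.

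The depth at week 2 limits what can be seen. Over the 8 libraries a member had 0 to 860 counts with a median of 15.5, and 9 members had none (0.667% of the 9302 genes). At least 10 counts were reached by 94 members, where 94.5% of the 9302 genes reached them. Standard errors (SE) here are the absolute log2 fold change divided by the square root of the test's F statistic. Their median over the members was 0.96 at week 2 and 0.51 at week 3. The 9 members without week 2 counts enter the week 2 median at 0, which pulls it down.

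The 7 calls hold for the fit to 27 libraries. In 3 of them the injured and uninjured libraries did not overlap. The member ranked 89 had 8.92 to 22.6 CPM in injured week 2 and 43.8 to 63.6 CPM in uninjured week 2, from 21 and 58 counts. Its injured level was lower by 1.72 on the log2 scale (SE 0.47, edgeR adjusted p = 0.0352). The uninjured level was near that of injured week 3, 65.5 CPM, and of culture, 56.2 CPM.

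The member ranked 11 had 7.03 to 47.5 CPM in the uninjured week 2 libraries and counts in only 1 injured library, 3 in number. Its injured level was lower by 3.28 on the log2 scale (SE 0.89, edgeR adjusted p = 0.0337). The member ranked 46 went the other way, with 5.95 to 16.9 CPM in the 4 injured libraries and 0 counts in all 4 uninjured ones, at least 4.28-fold higher against a floor of 3 counts over the group (edgeR adjusted p = 0.0392). Neither rank 11 nor rank 46 passed the low count filter on the week 2 libraries alone. Their adjusted p-values exist only in the fit that members entered by way of groups where they are high. Separation of 4 against 4 libraries was seen for 1 member with injured above and 2 with uninjured above, where 1.26% of the 9302 genes showed each.

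The groups overlapped in the other 4 called members. Ranks 21 and 78 were called higher, the first from 31 injured against 3 uninjured counts and the second from 20 against 0. All 20 of the latter were in 2 libraries. Rank 24 was called lower, with 3 against 23 counts, and so was a lower-ranked member with 0 against 14. These 4 members were not tested on the week 2 libraries alone either. No called member rests on more than 58 counts in a group.

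**Figure D5:**
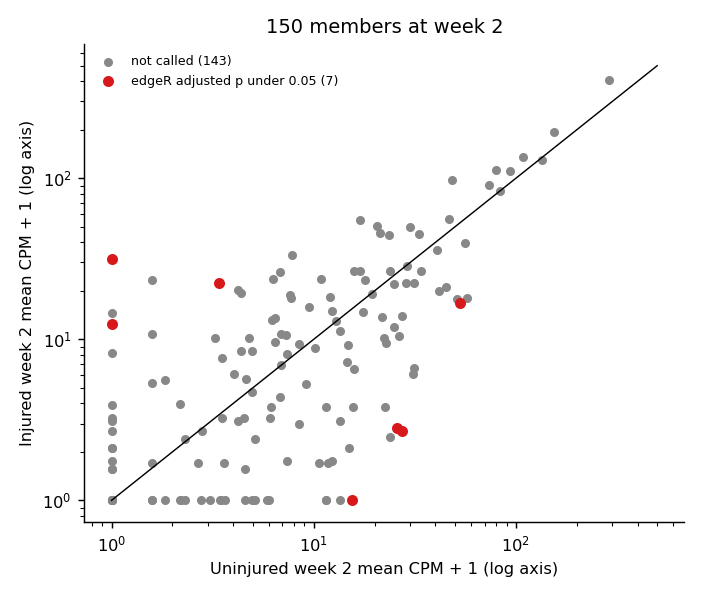
Mean CPM + 1 at week 2 in injured against uninjured libraries for the 150 members on log axes, with the 7 members that passed edgeR's adjusted p in red (3 higher, 4 lower). Members lie on both sides of the line of equality, and the median log2 fold change is -0.04.

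The week 2 level itself was mostly below that of injured week 3. The injured week 2 mean was at least 50% of the injured week 3 mean for 27 members (67.2% of the 9302 genes) and the uninjured week 2 mean for 29 (68%). Both week 2 means were under 25% for 61 members (6.46%) and both at least 50% for 11 (55.8%). Since members were selected for a high injured week 3 mean, a lower level elsewhere partly follows from the choice.

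The member ranked 10 was among those with week 2 levels in both groups. Its injured week 2 libraries held 47.3, 11.3, 31.4 and 0 CPM and its uninjured week 2 libraries 10.5, 0, 23.4 and 34.1 CPM, from 22 and 19 counts. Injured week 3 held 30.4, 20.4 and 24.1 CPM, and the 12 libraries of the other groups 0 to 4.39 CPM. Its week 2 groups thus overlapped each other and injured week 3, and lay mostly above the other groups of weeks 3 and 4, while the injured week 3 library left out by the rule had 0 counts.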

How the data were processed

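Total RNA of 28 samples was sequenced. The authors deposited 1 table of whole-number counts per gene for all samples, with rat Ensembl identifiers. Per the submitters' processing notes, the aligner STAR (2.5.1) and the counter featureCounts (1.5.1) were among the tools, beside StringTie (1.3.3), Trim Galore (0.4.1), Picard, and FastQC (0.11.5). Those notes name the build GRCm38, a mouse build, while the identifiers are rat, so no coordinates are given. The counts carry no molecular identifiers, and intervals and floors cover counting error only.

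CPM was computed from the deposited counts and column totals. edgeR 4.0.16 (quasi-likelihood test, TMM scaling, filterByExpr, R 4.3.3) was fitted to 27 libraries in 7 groups without injured week 3 replicate 3, with Benjamini-Hochberg adjustment over 14282 genes. DESeq2 1.42.0 and limma 3.58.1 (voom) were alternatives, as were other scalings, filters and sets of libraries. The procedure was also run on simulated counts, with changes set only in genes above a level that most members did not reach at week 2. That run therefore does not bear on the week 2 test of those members. The members and lists were chosen with earlier results of these data known. The 2 members with the largest ratio are named by identifier; members with the most extreme culture ratios, members called at week 2, and ranks 9 and 10 were looked at by rank, some of them after their values were seen. The 32 gene lists, marker checks and sequences were not run, because 0 identifiers matched a symbol.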

Additional observations from a re-analysis of the deposited data

Results flagged for a closer look

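In groups of 4 libraries, 8 of 28 groups examined held a library whose gap to the nearest other was past Dixon's 95% critical value. Chance gives this in about 1 in 20 groups, or 1.4 here, and where the other 3 libraries are equal any difference does so. For ENSRNOG00000043219, uninjured week 2 replicate 3 had 14.1 CPM and injured week 2 replicate 4 had 8.92 CPM while the others of their groups had 0. In uninjured week 3, replicate 1 had 0.879 CPM beside 1.94 to 2.08. For ENSRNOG00000018384, injured week 2 replicate 1, the shallowest library, had 23.7 CPM beside 0 to 2.82.

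The members' summed level in uninjured week 4 replicate 3 was 2500 CPM beside 1534 to 1605. The share of the 150 members detected was 30.7% in injured week 2 replicate 1 beside 51.3% to 55.3%, 70.7% in injured week 3 replicate 3 beside 100%, and 98.7% in culture replicate 3 beside 99.3%. The causes were not tested.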

How the results depend on the processing

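Neither the ratios of both named genes nor the median culture ratio changed sign under any alternative run. The named genes were picked for the largest ratios, and the median log2 culture ratio was small throughout, so little is read from that. The members' share called higher at week 4, above that of all genes in the fit described, was below it in 6 of the 19 fits run, counting the one described. The alternatives for the week 3 and week 4 counts were chosen after seeing the data. The number of members higher in injured week 2 was 3, and 0 when only the 8 week 2 libraries were fitted (18 members tested, 0 at an unadjusted p of 0.05), 5 with DESeq2, 0 with limma voom (2 at an unadjusted p of 0.05) and 0 to 4 when 1 replicate was left out. The number lower was 4, and 1 with all 28 libraries, 0 with only the week 2 libraries (1 at an unadjusted p of 0.05), 2 with library totals alone, 13 with DESeq2, 0 with limma voom (3 at an unadjusted p of 0.05) and 1 to 6 with 1 replicate left out. The number higher in injured week 4 was 27, and 2 with all 28 libraries, 59 without the week 2 libraries and 6 to 45 with 1 replicate left out. The number called higher at week 3 was 150 with each replicate left out and 145 with all 28 libraries, and that lower at injured week 4 than week 3 was 135 to 150, and 72.7% of the members with all 28 libraries. Chosen again with a constant of 5 or a minimum of 20, the list shared 93 or 99 members with the one described. The median log2 ratio of culture to injured week 3, 0.11, was 0.20 with TMM and 0.038 to 0.18 with 1 replicate left out. The causes were not tested. The planned counts of gene lists were not run. No paired analysis was possible because the labels give no replicate numbers, and those used here only follow accession order. Week 2 depth limits all week 2 statements.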
